A study of Mus musculus with 11 samples.

Results

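Skin tumors of mice that carry a conditional knockout of Dlx3 (Dlx3 KO) were compared with skin of wild-type (WT) mice by RNA sequencing of whole tissue. The comparison uses 8 of the 11 libraries of the study: 5 Dlx3 KO tumors (tumors 1 to 5) and 3 WT skins (WT skins 1 to 3), chosen by the genotype and tissue of their labels. The other 3 libraries are Dlx3 KO skin without tumor, and their values are given beside those of the tumors. Every animal, WT included, was painted on the back with DMBA 3 times, 1 week apart (100 µg each time, in a volume of 200 µl), and tissue was collected at week 31. DMBA is a polycyclic hydrocarbon that is turned into a mutagen in keratinocytes and starts squamous tumors in mouse skin. The sources used here do not give the Cre driver, the deleted exon, the sex or the age of the mice. They do not tie samples to animals either, so several tumors may come from the same mouse, and the p-values here reflect sample-to-sample spread only.

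Dlx3 encodes a homeobox protein that acts in the differentiating layers of epidermis and in the hair matrix and shaft. Skin tumors of this kind grow from keratinocytes of the epidermis or follicle. A squamous tumor keeps making keratins, but it commonly changes from the programme of resting epidermis (Krt1, Krt10, Lor) to keratins and envelope proteins of wounds and of oral mucosa. Whole back skin holds hair follicles, dermis, fat and the thin muscle sheet beneath the skin besides epidermis, so tumor and skin can differ in tissue makeup as well as in gene regulation. In these bulk samples, fewer cells of a type and less RNA per cell cannot be told apart.

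Expression is given as RPKM (reads per kilobase of gene, scaled to mapped reads), and libraries are listed in their numbered order. Log2 fold changes are tumor minus WT skin on log2(RPKM + 0.5), which understates changes of low genes. Each is given with its standard error (SE) and a p-value from limma, adjusted over all 14233 genes tested. A gene was called when its adjusted p was under 0.05, and "higher", "rose", "lower" and "fell" refer to called genes.

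The libraries held 29265111 to 75707445 alignments. A sample sheet places tumor 5 and all WT skins in the first sequencing run and tumors 1 to 4 in the second, so run and group nearly coincide. Within the first run the comparison is tumor 5 against 3 WT skins, and its error is borrowed from the skin libraries. Xist was low and the Y-linked Ddx3y high in tumors 3 and 4 and in WT skins 1 and 3, which gives the other libraries the opposite sex pattern. Rn45s, a ribosomal RNA precursor, reached 11833 RPKM in tumor 5 and 10021 RPKM in WT skin 1, and 612 to 3242 RPKM in the other 9 libraries.

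Dlx3 itself (chromosome 11, 95120119 to 95125296 on mm10) had 4.16, 7.61, 7.52, 1.93 and 1.34 RPKM in the 5 tumors. It had 4.08, 8.88 and 6.72 RPKM in Dlx3 KO skin, and 49.9, 7.35 and 89.9 RPKM in WT skin. The library labelled WT skin 2 therefore lay within the range of the knockout libraries, whereas the other WT skins lay far above every tumor. Dlx3 was lower in tumor by a log2 fold change of -2.96 ± 0.74 (adjusted p = 0.0207). With the library labelled WT skin 2 left out the value was -4 (adjusted p = 0.00137), and the call was lost without WT skin 1 (adjusted p = 0.0725) or without WT skin 3 (adjusted p = 0.0967). The values count reads over the whole gene, and the deleted part is not given, so they do not measure the recombined allele.

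Of the 14233 genes, 506 (3.56%) were higher and 1702 (12%) lower in tumor than in WT skin. Among these, 142 of the higher and 638 of the lower genes changed by a log2 fold change of at least 2 in size. Tumor and WT skin values did not overlap for 553 genes on the high side (3.89% of all tested) and 1743 on the low side (12.2%), and 377 (2.65%) and 1364 (9.58%) were also called. At an unadjusted p under 0.05 there were 4203 genes (29.5%). RPKM are shares of a library, and the split between higher and lower depends on the scaling: 22.9% of calls were higher as deposited, 39.6% after median-ratio scaling and 51.6% after quantile normalization. The median of all genes was -0.14 as deposited, 0.025 after median-ratio scaling and 0.14 after quantile normalization, so small shifts of a list are to be read against it.

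These counts rest on few libraries. The number of higher genes was 276 without WT skin 1, 311 without tumor 2, 328 without tumor 3 and 764 without tumor 5. The number of lower genes was 883 without WT skin 3 and 2662 without tumor 1. With sequencing run as a term 125 genes were higher and 580 lower, and within the first run 239 were higher and 1365 lower. Without the library labelled WT skin 2 there were 449 higher and 1382 lower genes, of which 360 and 1216 were also called with it.

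**Figure D1:**
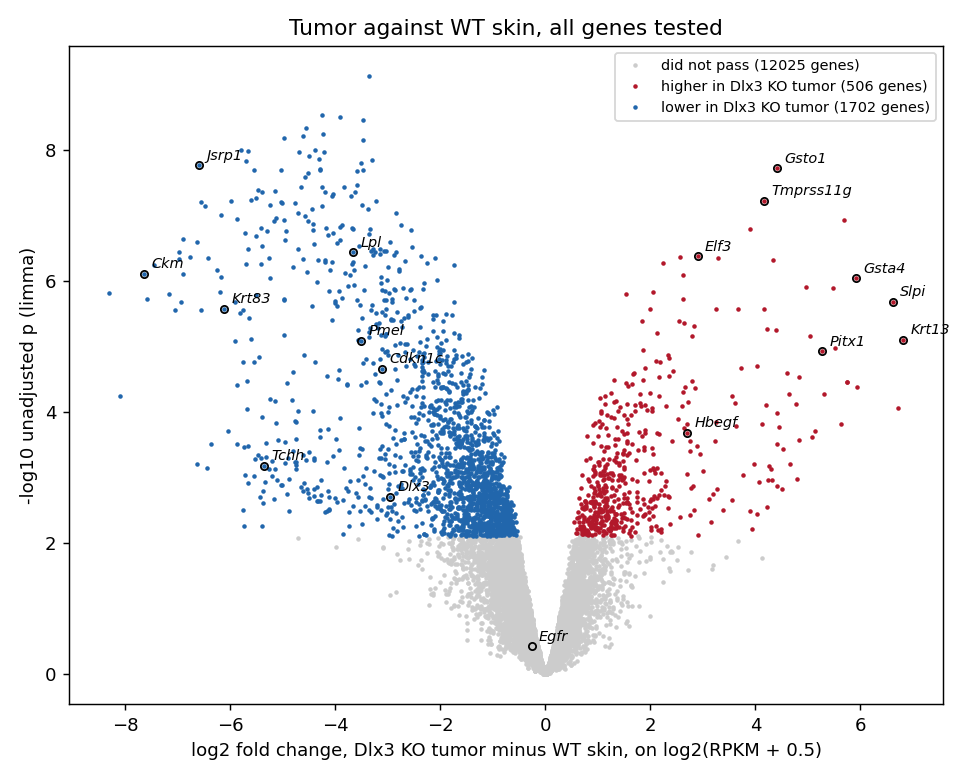
Log2 fold change of Dlx3 KO tumor minus WT skin (x axis) against the negative log10 of the unadjusted limma p (y axis) for 14233 genes. Red points are the 506 genes higher in tumor, blue points the 1702 lower, grey points did not pass. Genes of muscle (Jsrp1, Ckm) and hair (Krt83) lie far to the left and Krt13, Slpi and Gsta4 far to the right, while Egfr lies near the centre.

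The largest falls were in genes of skeletal muscle. All but 2 of the 29 tested muscle markers were lower in tumor (27 lower and 0 higher), with a median log2 fold change of -6.42. Ckm, the muscle creatine kinase, had 9.43, 10.3, 4.19, 2.51 and 66.7 RPKM in the tumors and 1978, 1666 and 2422 RPKM in WT skin. Its log2 fold change was -7.64 ± 0.78 (adjusted p = 7.7e-05). Every tumor was far below every WT skin, and tumor 5 stood above the other tumors.

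The same pattern held for Pvalb, a calcium buffer of fast fibres. It had 4.15, 4.23, 1.90, 1.27 and 58.3 RPKM in tumors against 2154, 1596 and 1650 RPKM in WT skin, a log2 fold change of -8.32 ± 0.91 (adjusted p = 0.000125). Myh4, the myosin heavy chain of the fastest fibres, fell by 8.10 on the log2 scale, and Tnnc2, troponin C of fast fibres, fell by 7.58. Ryr1 and Cacna1s, the calcium release channel and voltage sensor of muscle, fell by 5.51 and 5.02, and Des, the muscle intermediate filament, by 5.99. Myf6, a muscle-determining transcription factor, had 0.103, 0.118, 0.0564, 0.0664 and 0.509 RPKM in tumors and 12, 9.31 and 15.1 RPKM in WT skin. Its groups lay wide apart, as did those of Cav3, the caveolin of muscle, and of Myom1, a protein of the sarcomere's M line.

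Genes that power muscle fell with it. Cox6a2, Cox7a1 and Cox8b, muscle forms of cytochrome oxidase subunits, changed by -6.49, -5.79 and -6.20 on the log2 scale, and Pgam2, the muscle phosphoglycerate mutase, by -6.55. Rpl3l, the muscle form of a ribosomal protein, fell by 5.6. Dlx3 KO skin carried muscle RNA too: Ckm had 816, 673 and 1456 RPKM there. The summed RPKM of the 29 markers was 53.8 to 911 in tumor, 7956 to 17050 in Dlx3 KO skin and 17310 to 27090 in WT skin, and no marker was at 0 in any of these tumors or WT skins. In the fit with run as a term 26 markers were lower, and within the first run 25.

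Fat genes were lower as well. Of 15 tested adipocyte markers 13 were lower and 0 higher, with a median of -3.77. Lpl, the lipase that unloads circulating lipoproteins, had 24.4, 14.3, 7.29, 9.76 and 18.9 RPKM in tumors, 83.6, 94.1 and 149 RPKM in Dlx3 KO skin, and 175, 203 and 160 RPKM in WT skin (log2 fold change -3.66 ± 0.35, adjusted p = 4.91e-05). Tumor and WT skin did not overlap, and Dlx3 KO skin lay between them. Plin4, a coat protein of lipid droplets, changed by -4.45, Car3, a carbonic anhydrase abundant in fat and muscle, by -5.64, and Slc2a4, the insulin-responsive glucose transporter, by -3.17. Fabp4 and Pparg were the markers that did not pass, at -1.10 and -0.92. The fit with run as a term gave 11 of the 15 lower, and within the first run 15.

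Hair shaft genes formed the next large group. All 15 tested keratins of hair cortex and cuticle were lower in tumor (median -4.96), as were all 12 tested genes of the inner root sheath (median -4.93) and all 53 tested keratin-associated proteins (median -4.88), which fill the space between keratin filaments of the shaft. Krt83 had 5.36, 2.44, 8.11, 3.04 and 10.6 RPKM in tumors, 11.1, 114 and 33.1 RPKM in Dlx3 KO skin, and 603, 173 and 581 RPKM in WT skin (log2 fold change -6.12 ± 0.71, adjusted p = 0.000185). Krt81, its close relative, fell by 5.91, Krt33b by 5.81 and Krt36 by 4.06. All tumors were below all WT skins for these keratins, and the library labelled WT skin 2 was the lowest WT skin. For shaft keratins, sheath genes and keratin-associated proteins, tumor minus Dlx3 KO skin gave medians of -2.385, -0.12 and 0.19. Against Dlx3 KO skin 5, 1 and 0 of them were called lower. Dlx3 KO skin minus WT skin gave medians of -3.13, -4.44 and -4.785, with 0 calls.

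The inner root sheath showed that library more sharply. Tchh, trichohyalin, the matrix protein of the sheath, had 2.74, 6.88, 30.4, 2.69 and 21.8 RPKM in tumors, 7.02, 60.6 and 12.8 RPKM in Dlx3 KO skin, and 930, 44.8 and 1105 RPKM in WT skin. Its log2 fold change was -5.36 ± 1.15 (adjusted p = 0.0101), and the call was lost without WT skin 3. Krtap1-5 had 0.127, 3.27, 2.73, 0.397 and 7.22 RPKM in tumors against 337, 18.5 and 486 RPKM in WT skin. In both genes the library labelled WT skin 2 was closer to the knockout libraries than to the other WT skins.

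The hair calls were sensitive to run and library. With run as a term, 8 of the 15 shaft keratins, 0 of the 12 sheath genes and 2 of the 53 keratin-associated proteins were lower, at medians of -3.85, -3.57 and -3.89. Within the first run 4, 2 and 0 of them passed, at medians of -4.47, -3.82 and -3.68. Without WT skin 3 the sheath list had 1 call and the keratin-associated proteins 18, and without WT skin 1 they had 4 and 22. The sheath list had 7 calls without tumor 2 and 7 without tumor 4. Without the library labelled WT skin 2, by contrast, 14 shaft keratins and all 12 sheath genes were lower.

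Regulators of the hair matrix followed in part: 11 of 17 were lower and 0 higher, with a median of -2.35. Msx1, a homeobox factor, fell by 2.53, Wnt10b, a Wnt ligand, by 2.31, Hoxc13, the homeobox factor that drives shaft keratins, by 3.27 and Msx2 by 2.58. The count fell to 1 without WT skin 3 and to 4 without WT skin 1, and with run as a term it was 0. It was 6 or 7 without each of tumors 2 to 5. Of 11 tested markers of follicle stem cells only Krt15 was called. It had 443, 74.6, 110, 96.8 and 51.9 RPKM in tumors and 344, 529 and 640 RPKM in WT skin (log2 fold change -2.11 ± 0.55, adjusted p = 0.0252), so tumor 1 overlapped WT skin. Without tumor 1, 6 of the 11 were lower. The Krt15 call was lost without any of tumors 2, 3 and 4 or WT skins 2 and 3.

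Pigment and nerve genes fell at lower levels. Of 10 tested melanocyte markers 9 were lower, with a median of -2.04. Pmel, the protein of melanosome fibrils, had 5.93, 5.72, 2.10, 2.31 and 2.58 RPKM in tumors and 39.9, 30.0 and 71.2 RPKM in WT skin (log2 fold change -3.51 ± 0.46, adjusted p = 0.000429). Of 11 tested Schwann cell and nerve markers 7 were lower, with a median of -1.23, among them S100b (-1.74 ± 0.25). With run as a term 2 melanocyte and 3 Schwann cell markers passed.

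By share, fewer fibroblast and endothelial genes were lower than the 12% of all genes tested. Among tumors, the summed RPKM of fibroblast and matrix genes was 2542 in tumor 1, 325 in tumor 5 and 1044 to 1691 in the others. Endothelial markers had a median of 4.57 RPKM in tumor 1, 4.88 RPKM in tumor 4 and 1.86 to 3.49 RPKM in the others. Only 2 of 23 tested fibroblast and matrix genes were lower, Dpt and Mfap5, and the median was -0.88. Dpt, a dermal matrix protein, had 73.7 RPKM in tumor 1, 7.04 to 21.2 RPKM in the other tumors, and 81.3, 118 and 127 RPKM in WT skin. Neither call was kept without the library labelled WT skin 2 or without WT skin 3, and 7 matrix genes were lower without tumor 1. Of 15 endothelial markers only Tek, the angiopoietin receptor, was lower (-1.60 ± 0.26), and 6 were lower without tumor 1. Of 10 smooth muscle markers Des, Lmod1 and Synpo2 were lower, and 6 were lower without tumor 1. Des is counted here and among the skeletal muscle markers. Within the first run 18 of the 23 matrix genes were lower, at a median of -2.71, and with run as a term 0 were lower and 1 higher. The Mfap5 call was kept in 12 of 25 alternatives.

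Macrophage genes were lower by modest amounts. Of 20 tested markers 8 were lower and 0 higher, with a median of -1.10. C1qc, a chain of the complement recognition protein made by tissue macrophages, had 40.8, 11.2, 9.56, 24.8 and 8.47 RPKM in tumors, 53.5, 57.7 and 61.7 RPKM in Dlx3 KO skin, and 55.2, 66.2 and 49.5 RPKM in WT skin. Its log2 fold change was -1.82 ± 0.44 (adjusted p = 0.0176). Lyz2, Mrc1 and Cd163 were the other leading members, at -1.71, -2.15 and -2.23. The count of 8 rests on several libraries: it was 1 without the library labelled WT skin 2, 0 without WT skin 3, 2 without WT skin 1 or tumor 3, 1 without tumor 2, and 5 without tumor 4 or Dlx3 KO skin 2. It was 0 with run as a term and 9 within the first run. Retnla, a secreted protein of alternatively activated macrophages and of fat, had 44.2, 1.23, 0.522, 0.615 and 19.4 RPKM in tumors and 360, 1006 and 138 RPKM in WT skin (-6.37 ± 1.25, adjusted p = 0.00598).

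**Figure D2:**
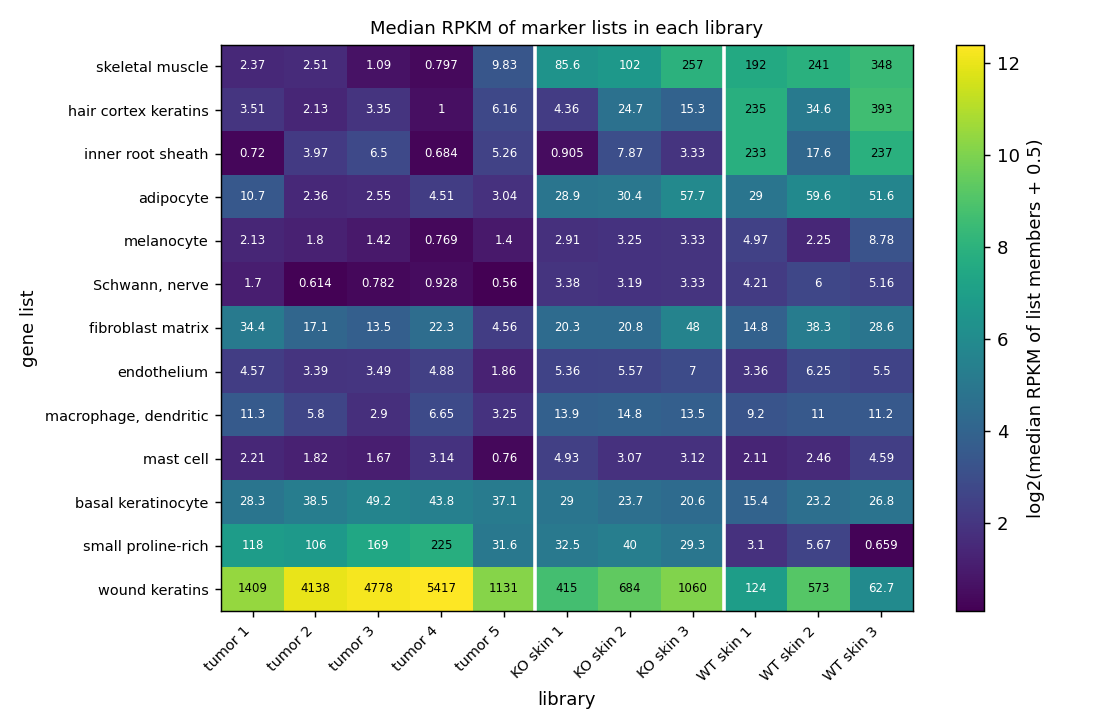
Median RPKM of all measured members, tested or not, of 13 marker lists (rows) in each library (columns: 5 tumors, 3 Dlx3 KO skins, 3 WT skins). Colour is on a log2 scale and the value is printed in each cell. Muscle and adipocyte markers were low in all tumors and high in all skins, sheath genes were highest in WT skins 1 and 3, and small proline-rich genes and wound keratins were highest in tumors 1 to 4.

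On the high side, all 4 tested wound keratins (Krt6a, Krt6b, Krt16, Krt17) rose, with a median of 4.44. Krt6b, a keratin switched on in injured epidermis, had 1316, 3873, 4387, 5903 and 760 RPKM in tumors, 54.4, 115 and 529 RPKM in Dlx3 KO skin, and 23.2, 155 and 3.18 RPKM in WT skin (log2 fold change 6.72 ± 1.13, adjusted p = 0.00241). The lowest tumor was above every skin, and WT skin spread more than tumor. Krt6a rose by 4.22 ± 0.53 and Krt16 by 4.65 ± 0.99. Krt17 rose by 1.17 ± 0.32, and it was no longer called in 5 of the 11 fits that left out a library. Without WT skin 3 the list had 2 calls, with run as a term 2, and within the first run 1.

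Krt13 (chromosome 11, 100117327 to 100121566), a keratin of oral and oesophageal lining that marks squamous tumors of mouse skin, had the largest rise. It had 67.0, 256, 1374, 48.0 and 156 RPKM in tumors, 2.22, 1.66 and 1.58 RPKM in Dlx3 KO skin, and 1.11, 2.38 and 0.356 RPKM in WT skin. The log2 fold change was 6.82 ± 0.88 (adjusted p = 0.000426), and it was called under all 25 alternative settings. The highest skin value was far under the lowest tumor value, and tumor against Dlx3 KO skin gave 6.28 (adjusted p = 0.00126). Krt19 and Krt23, keratins of simple and other epithelia, were lower (-2.40 and -2.34), and Krt23 overlapped between groups and was called in 10 of 25 alternatives. Of the 9 tested mucosal and simple-epithelial keratins, Krt13 was thus the 1 that rose and 2 fell, with a median of -0.77.

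The small proline-rich proteins, cross-linked precursors of the cornified envelope, rose as a family: 14 of 16 tested genes were higher and 0 lower, with a median of 4.89 against -0.14 for all genes. All 16 lie on chromosome 3. Sprr2f had 93.3, 97.0, 114, 66.3 and 28.4 RPKM in tumors, 14.7, 18.4 and 27.2 RPKM in Dlx3 KO skin, and 2.41, 4.14 and 0.447 RPKM in WT skin (4.96 ± 0.54, adjusted p = 0.000112). Dlx3 KO skin lay between tumor and WT skin with no overlap on either side. Sprr2k differed in this: it had 23.0, 54.0, 100, 10.7 and 17.2 RPKM in tumors, 0.407, 0.487 and 0.791 RPKM in Dlx3 KO skin, and 0.0890, 0.463 and 0.0460 RPKM in WT skin (5.49 ± 0.59, adjusted p = 0.000113).

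Sprr3 was also near 0 in both kinds of skin, with 65.4, 23.2, 199, 2.45 and 41.2 RPKM in tumors, 0.186, 0.985 and 0.942 RPKM in Dlx3 KO skin, and 0.233, 0.242 and 0.0481 RPKM in WT skin. Sprr2d had 526, 705, 147, 866 and 93.9 RPKM in tumors, 386, 471 and 422 RPKM in Dlx3 KO skin, and 24.0, 64.1 and 3.03 RPKM in WT skin, so Dlx3 KO skin lay within the range of the tumors. Sprr2a1 and Sprr2a2 held identical values in every library, so reads of these near-identical copies cannot be assigned to single genes. With run as a term 9 of the 16 were higher, and within the first run 6. Sprr4 and Sprr1a did not pass, at -0.22 and 1.05.

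Promoters of this family are shown because many of them hold the AP-1 motif TGANTCA, bound by Fos and Jun dimers. In windows from 250 bases before to 50 bases after the RefSeq start, 9 of the 14 Sprr promoters in the table held it on either strand, against 5.62% of the 8885 promoters of tested genes, 8.58% of those called higher and 7.79% of those called lower. The palindrome reads alike on both strands, and a match is no evidence of binding. Sprr1a, which did not pass, held 2 motifs, and Sprr4, which did not pass, held 0. Sprr2a1, Sprr2a2, Sprr2a3 and Sprr3, which were higher, also held 0. Of 48 promoters of keratin-associated proteins, whose tested genes were all lower, 10 held the motif. The 250 bases before the start follow on GRCm38.p6, 5′ to 3′ in the direction of the gene, with the motif in capitals. Sprr1b, of the same family, rose by 4.41 ± 0.86. Sprr1b lies at chr3:92438780-92439029 on the minus strand, and on the plus strand Sprr2d lies at chr3:92338890-92339139, Sprr2f at chr3:92364937-92365186 and Sprr2k at chr3:92432332-92432581.
Sprr1b: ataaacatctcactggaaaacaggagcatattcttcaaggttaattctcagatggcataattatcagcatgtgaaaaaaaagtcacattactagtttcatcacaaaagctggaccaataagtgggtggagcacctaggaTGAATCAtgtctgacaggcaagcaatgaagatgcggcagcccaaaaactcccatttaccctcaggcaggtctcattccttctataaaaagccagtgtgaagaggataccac
Sprr2d: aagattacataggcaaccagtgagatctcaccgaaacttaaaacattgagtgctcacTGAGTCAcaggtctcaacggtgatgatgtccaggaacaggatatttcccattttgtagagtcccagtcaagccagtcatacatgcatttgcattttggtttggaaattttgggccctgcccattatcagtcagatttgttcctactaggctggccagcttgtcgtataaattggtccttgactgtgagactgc
Sprr2f: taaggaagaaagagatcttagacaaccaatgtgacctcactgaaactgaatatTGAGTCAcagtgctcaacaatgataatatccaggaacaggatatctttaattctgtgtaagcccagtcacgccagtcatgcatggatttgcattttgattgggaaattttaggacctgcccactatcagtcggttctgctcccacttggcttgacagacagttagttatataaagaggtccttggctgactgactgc
Sprr2k: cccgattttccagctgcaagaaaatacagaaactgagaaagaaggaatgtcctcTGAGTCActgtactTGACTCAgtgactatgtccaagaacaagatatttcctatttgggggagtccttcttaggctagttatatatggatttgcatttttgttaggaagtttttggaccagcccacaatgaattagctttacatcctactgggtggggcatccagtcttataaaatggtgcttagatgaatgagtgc
The motif began 193 bases before the start in Sprr2d, 197 in Sprr2f and 196 in Sprr2k, which had another at 182, and 111 bases before the start in Sprr1b. The motifs of Sprr2d and Sprr2k lie close in position, while Sprr2k was low and Sprr2d high in Dlx3 KO skin.

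**Figure D3:**
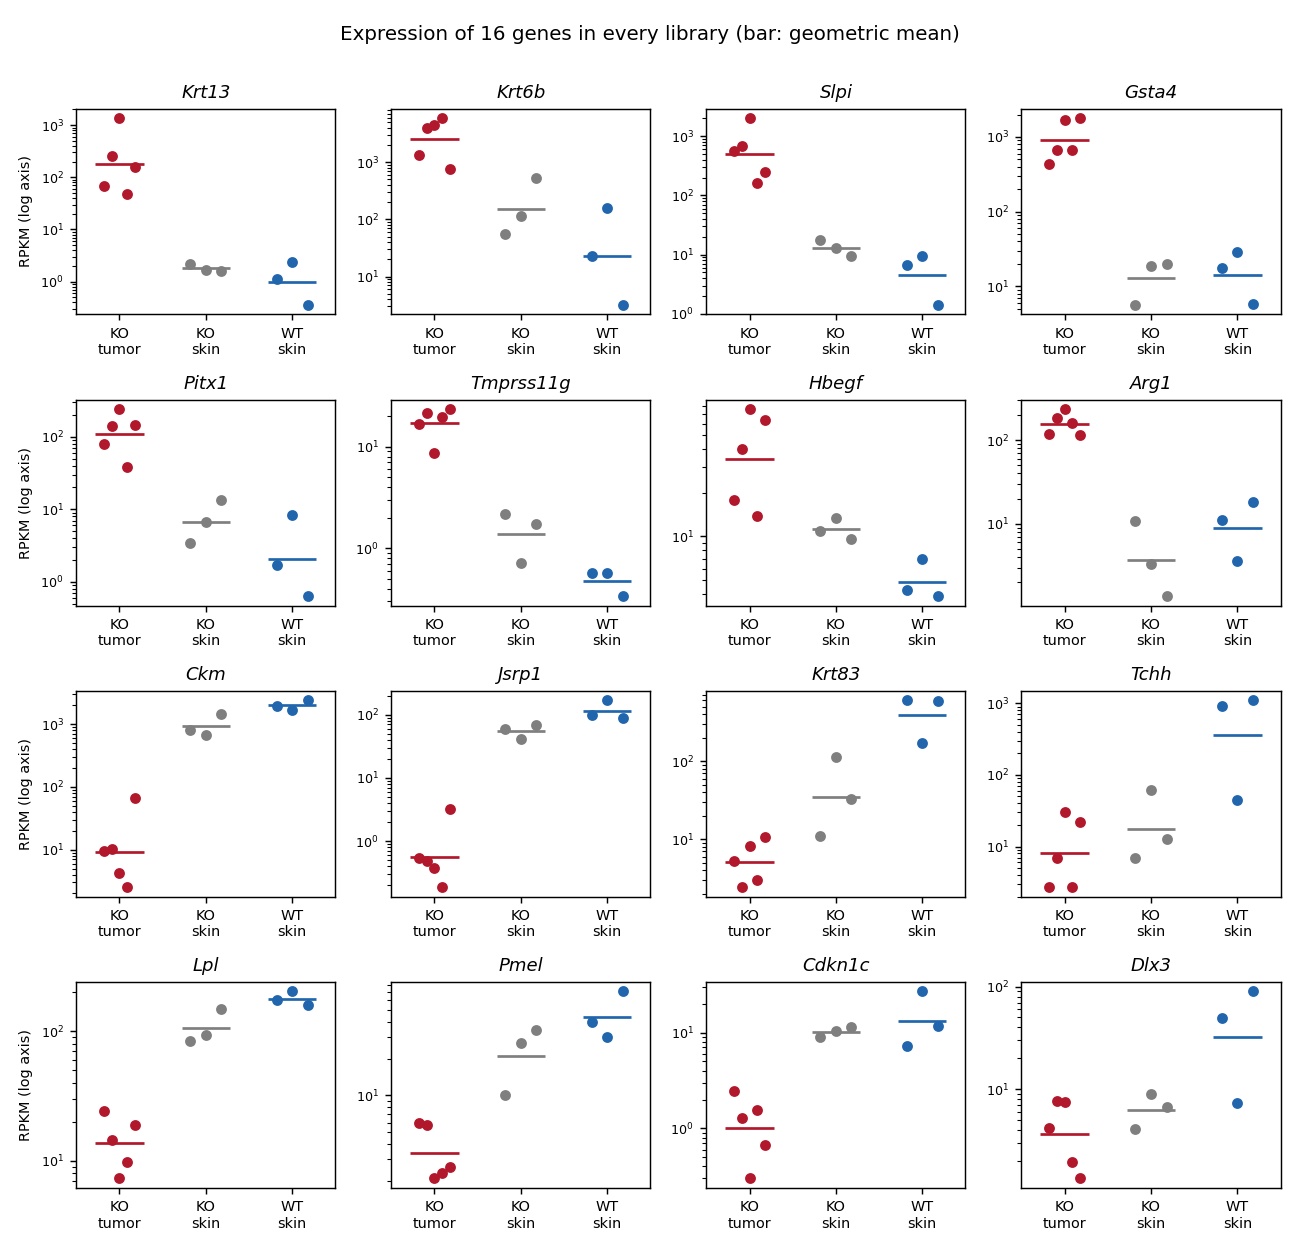
RPKM on a log axis (y) in every library for 16 genes, by group (x: Dlx3 KO tumor, Dlx3 KO skin, WT skin); each point is a library and bars are geometric means. Tumors lie above all skins for Krt13, Krt6b, Slpi, Gsta4, Pitx1, Tmprss11g, Hbegf and Arg1, below all WT skins for Ckm, Jsrp1, Krt83, Tchh, Lpl, Pmel and Cdkn1c, and overlap the library labelled WT skin 2 for Dlx3.

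Of 33 tested suprabasal and cornified genes 7 were higher and 2 lower, with a median of 0.13. The 6 tested members of the Lce3 group, which is induced in damaged skin, were among the 7, with Tgm3, an envelope transglutaminase. Lce3b had 79.8, 74.2, 326, 57.0 and 21.9 RPKM in tumors, 3.73, 15.9 and 8.47 RPKM in Dlx3 KO skin, and 1.70, 9.89 and 0 RPKM in WT skin (5.08 ± 0.96, adjusted p = 0.00510). Lce1m and Krt77, made by resting epidermis and sweat ducts, were lower (-3.57 and -3.75), and in both tumor 1 was far above the other tumors. The other 9 tested Lce1 genes did not pass, at log2 fold changes between -2.15 (Lce1a1) and -0.88 (Lce1e). The list median turned to -1.18 with run as a term and to -2.05 within the first run, where 0 were higher and 4 lower. It was -0.18 without tumor 1 and -0.20 without WT skin 1. No call was made among these genes with run as a term, and without WT skin 1 the higher count was 2, without WT skin 3 it was 3.

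Keratins of resting suprabasal epidermis varied widely within groups. Krt10 had 16430, 7011, 2061, 14160 and 463 RPKM in tumors and 1784, 15520 and 1432 RPKM in WT skin. Krt1, its partner, had 10890, 4317, 1058, 10290 and 299 RPKM in tumors and 579, 8501 and 388 RPKM in WT skin. Neither passed (adjusted p = 0.873 and 0.589), nor did Lor, the main envelope protein (adjusted p = 0.663). Tumors 1 and 4 and the library labelled WT skin 2 were high, tumors 3 and 5 and the other WT skins low.

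Basal keratinocyte genes were higher in part: 5 of 10 rose and 0 fell, with a median of 1.09. Krt14, the basal keratin, had 5794, 10650, 9115, 14280 and 10200 RPKM in tumors, 3340, 2682 and 2405 RPKM in Dlx3 KO skin, and 1098, 3255 and 746 RPKM in WT skin (2.79 ± 0.43, adjusted p = 0.00127). Krt5, its partner, rose by 1.49, and Itga6 and Itgb4, the integrin pair of hemidesmosomes, by 1.56 each. Of 13 tested genes of laminin-332 and its integrin receptors, which anchor keratinocytes to the basement membrane, 6 rose and 0 fell. Lama3, a chain of that laminin, rose by 1.5 ± 0.28. These modest changes depend on the design. With run as a term 1 basal gene and 0 laminin or integrin genes passed, within the first run 2 and 2, and without WT skin 1 there were 3 and 3. Without tumor 3 or tumor 4 there were 3 basal genes.

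Among 13 desmosome genes, Dsc2, Dsg3 and Pkp1 were higher and Pkp2 and Dsg2 lower. Dsc2, a cadherin of simple and stratified epithelia, had 31.5, 56.8, 103, 10.6 and 30.4 RPKM in tumors and 5.37, 2.04 and 6.73 RPKM in WT skin (2.94 ± 0.60, adjusted p = 0.00761). Dsg3, the desmoglein of basal and mucosal layers, rose by 2.20, while Dsg2, found in simple epithelia and follicles, fell by 0.95. Pkp1 overlapped between groups and was called in 9 of 25 alternatives. A run term left 0 desmosome genes called, and without tumor 5 there were 9 higher.

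**Figure D4:**
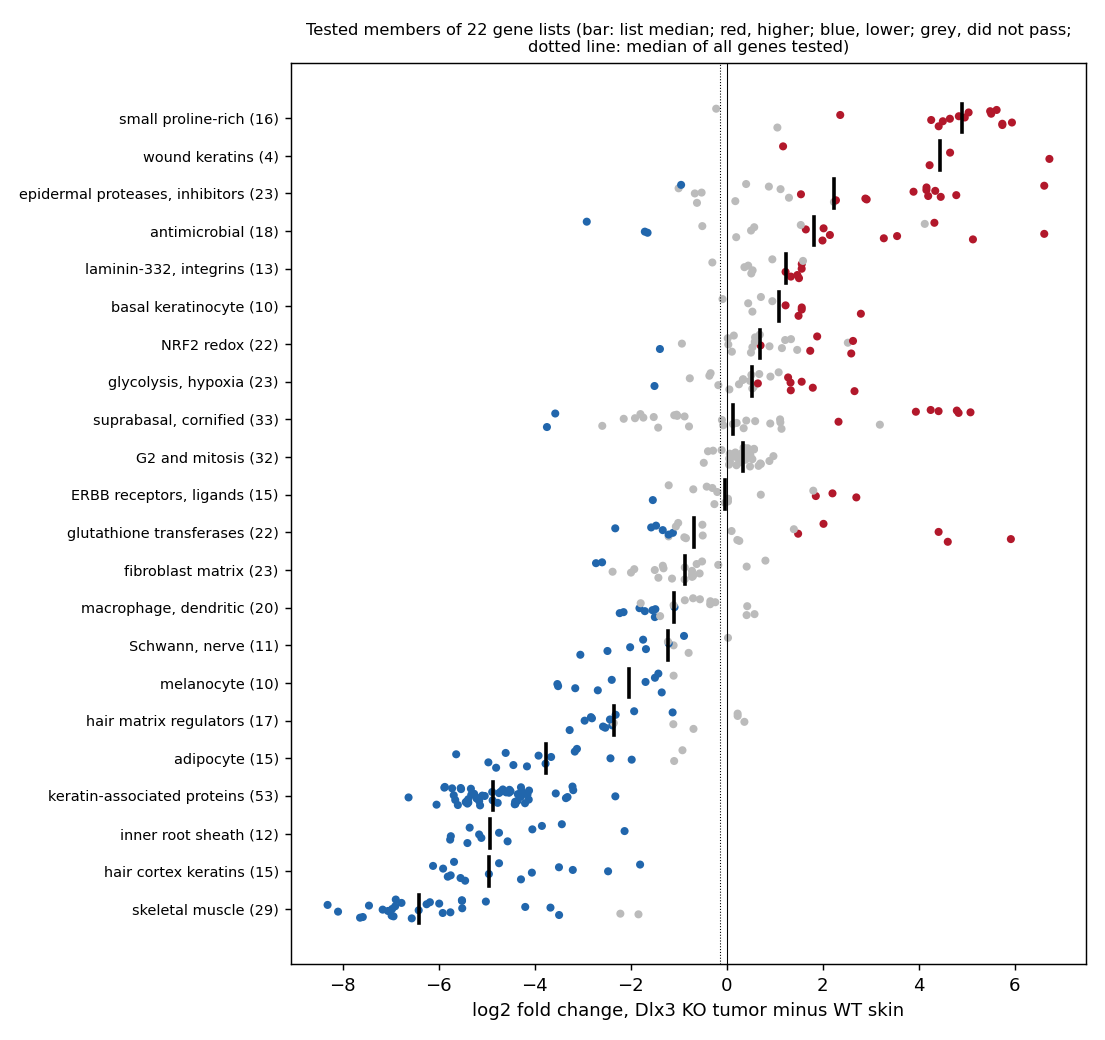
Log2 fold change of tumor minus WT skin (x axis) for the tested members of 22 gene lists (rows, number tested in brackets); red points were higher, blue lower, grey did not pass, black bars are list medians. The lists run from small proline-rich genes (median 4.89) at the top to skeletal muscle (median -6.42) at the bottom.

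Among epidermal proteases and their inhibitors 12 of 23 were higher and 1 lower, with a median of 2.23. The transmembrane serine proteases Tmprss11a, Tmprss11b and Tmprss11g, encoded near each other on chromosome 5, were the leading members. Tmprss11g had 16.8, 21.7, 8.73, 19.9 and 23.5 RPKM in tumors, 2.18, 0.723 and 1.73 RPKM in Dlx3 KO skin, and 0.574, 0.575 and 0.338 RPKM in WT skin (4.16 ± 0.34, adjusted p = 1.85e-05). Tumors were far above all skins, and the spread within each group was small. Tmprss11a rose by 3.89 ± 0.35 and Tmprss11b by 4.34 ± 0.43, and all 3 were called under all 25 alternative settings.

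Slpi, a secreted inhibitor of neutrophil elastase, had 567, 677, 2031, 164 and 253 RPKM in tumors, 17.4, 12.8 and 9.42 RPKM in Dlx3 KO skin, and 6.56, 9.65 and 1.41 RPKM in WT skin (6.61 ± 0.75, adjusted p = 0.000153). Klk14, a kallikrein that cuts desmosomal proteins during shedding, rose by 4.78 ± 0.79. Spint1, an inhibitor of matriptase, was the member that fell, by 0.95 on the log2 scale, and no member was lower in 8 of the 11 fits that left out a library. Within the first run 7 members were higher and 2 lower, and with run as a term 5 and 0. Serpinb1a, an intracellular inhibitor of neutrophil proteases, had 32.8, 22.9, 47.0, 31.8 and 30.7 RPKM in tumors and 6.20, 6.62 and 6.35 RPKM in WT skin (2.25 ± 0.22, adjusted p = 5.88e-05), and 5 of 19 tested clade B serpins were higher and 1 lower. The higher count was 3 without tumor 2 or tumor 4, 2 without WT skin 1 or WT skin 3, and 10 without tumor 5.

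Antimicrobial genes were higher in 9 of 18 and lower in 3, with a median of 1.82. Defb3, a beta-defensin, had 182, 176, 26.9, 116 and 14.0 RPKM in tumors, 9.08, 33.9 and 43.9 RPKM in Dlx3 KO skin, and 3.71, 2.49 and 0.0913 RPKM in WT skin (5.13 ± 0.95, adjusted p = 0.00439). Wfdc12 and Defb4 rose by 4.32 and 3.27, and the lysozymes Lyz1 and Lyz2 and Wfdc21 fell. Slpi is counted here and among the protease inhibitors. S100a8 and S100a9, the chains of calprotectin, which both neutrophils and stressed keratinocytes make, rose by 4.42 ± 0.76 and 5.31 ± 0.84. S100a9 had 1395, 3277, 514, 1807 and 379 RPKM in tumors, 386, 418 and 736 RPKM in Dlx3 KO skin, and 69.3, 51.0 and 5.50 RPKM in WT skin. None of the other 8 tested neutrophil markers passed, and without tumor 1 there were 6 higher in that list. The antimicrobial count was 6 without the library labelled WT skin 2, 2 without WT skin 3, 5 without WT skin 1, and 1 with run as a term, and no member was lower without tumor 2 or without any 1 of the WT skins.

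Glutathione transferases, which conjugate electrophiles and are targets of the oxidant-response factor NRF2, moved both ways: 5 of 22 rose and 6 fell. There were 3 higher without any 1 of tumors 2 to 4, the Dlx3 KO skins or WT skins 1 and 3, and 3 lower without WT skin 3. A run term gave 3 higher and 0 lower, and the first run alone 3 higher and 4 lower. Gsto1 (chromosome 19, 47854970 to 47864790) had 367, 544, 1208, 670 and 701 RPKM in tumors, 54.9, 48.2 and 64.7 RPKM in Dlx3 KO skin, and 29.4, 37.2 and 24.5 RPKM in WT skin. The log2 fold change was 4.41 ± 0.32 (adjusted p = 1.1e-05), and its range over 25 alternatives was 4.19 to 4.62. Gsta4 (chromosome 9, 78182774 to 78209349), which detoxifies products of lipid peroxidation, had 440, 677, 1689, 676 and 1799 RPKM in tumors, 5.63, 18.7 and 20.0 RPKM in Dlx3 KO skin, and 17.7, 28.6 and 5.89 RPKM in WT skin. It rose by 5.92 ± 0.62 (adjusted p = 8.67e-05), and for both genes the lowest tumor was several times the highest skin.

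Gsta1 rose by 4.60 ± 0.67, also under all 25 alternatives, and Gstp2 was the leading member that fell (-1.33 ± 0.27). Of 22 genes of the NRF2 programme and its redox enzymes 5 rose and 1 fell, with a median of 0.70. Akr1b8, an aldo-keto reductase, had 19.5, 42.4, 29.6, 23.8 and 55.2 RPKM in tumors and 4.41, 5.13 and 4.62 RPKM in WT skin (2.63 ± 0.30, adjusted p = 0.000146). Nqo1, a quinone reductase, rose by 2.59, and Nfe2l2, which encodes NRF2, by 1.88, while Txnrd1 fell by 1.39. The count of 5 was 11 after either scaling, 9 without tumor 5, and 3 without the library labelled WT skin 2 or tumor 2. It was 1 with run as a term and 3 within the first run. The antioxidant response element core (TGACNNNGC, either strand) was found in 14.5% of promoters of higher genes, 14.4% of those of lower genes and 14.7% of all promoters.

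Of 9 genes that handle DMBA or its receptor, Tiparp was higher (1.08 ± 0.24) and Cyp1b1, the enzyme that activates DMBA, lower (-2.05 ± 0.50). Cyp1b1 had 3.93, 0.154, 0.376, 0.967 and 0.5 RPKM in tumors and 3.69, 5.14 and 6.12 RPKM in WT skin, so tumor 1 overlapped WT skin. Its call was lost without WT skin 2 or 3.

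In the glycolysis list 7 of 23 genes rose and 1 fell, with a median of 0.53. Slc2a1, the glucose transporter of proliferating cells, had 81.9, 195, 158, 151 and 92.6 RPKM in tumors, 72.7, 64.8 and 29.5 RPKM in Dlx3 KO skin, and 14.1, 37.0 and 15.2 RPKM in WT skin (2.66 ± 0.41, adjusted p = 0.00143). Pfkl and Pgam1 rose by 1.79 and 1.33. Aldoa, the aldolase that is also abundant in muscle, fell by 1.51 on the log2 scale, with muscle markers 27 of 29 lower beside it. After adding run as a term 1 rose, and the count was 4 without WT skin 1, WT skin 3, tumor 2 or tumor 3. Of 81 subunits of oxidative phosphorylation 22 fell and 0 rose, with a median of -0.36. The leading ones were the muscle forms given above, followed by Sdhb (-1.65 ± 0.21), and the count was 11 after median-ratio scaling, 13 without tumor 3 and 5 with run as a term.

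The title of the study names EGFR and ERBB2, so this receptor family was examined by role. The receptors did not pass. Egfr had 6.47, 4.45, 4.25, 4.30 and 3 RPKM in tumors, 5.37, 6.61 and 7.20 RPKM in Dlx3 KO skin, and 4.73, 3.72 and 8.49 RPKM in WT skin (log2 fold change -0.26 ± 0.28, adjusted p = 0.583). Erbb2 had 32.7, 19.3, 20.0, 18.1 and 9.49 RPKM in tumors, 28.4, 24.6 and 24.1 RPKM in Dlx3 KO skin, and 10.6, 27.0 and 23.9 RPKM in WT skin (-0.04 ± 0.37, adjusted p = 0.961). Erbb3 was at 0.02 ± 0.35 (adjusted p = 0.973). The groups overlapped for all 3, and messenger RNA says nothing of protein or phosphorylation. The sign of each of these differences changed under some scalings or with a library left out.

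Some ligands of EGFR changed, while the ligands Tgfa and Btc were not called. Hbegf, a membrane-anchored ligand released by proteolysis, had 17.8, 40.2, 75.7, 13.9 and 63.1 RPKM in tumors, 10.9, 13.4 and 9.67 RPKM in Dlx3 KO skin, and 4.28, 6.98 and 3.87 RPKM in WT skin. It rose by 2.70 ± 0.50 (adjusted p = 0.00456), and it was called under all 25 alternatives. Epgn, epigen, rose by 2.20 ± 0.53 and Areg, amphiregulin, by 1.85 ± 0.47. The Epgn call was lost without WT skin 1 or 3, and the Areg call without tumor 2 or WT skin 2 or 3. Both of these calls were also lost with run as a term. Egf itself was lower, with 0.571, 0.224, 0.114, 0.174 and 0.330 RPKM in tumors and 1.10, 1.77 and 2.56 RPKM in WT skin. Over the 15 tested receptors, ligands and inhibitors 3 were higher and 1 lower, with a median of -0.04 that was 0.15 after median-ratio scaling and 0.23 after quantile normalization. Without WT skin 3 the higher count was 1, and with run as a term 1 was higher and 2 were lower.

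Genes downstream of the receptors were tested next. Of 18 genes of RAS-ERK signalling and its feedback 2 were higher, Dusp7 (1.59 ± 0.33) and Phlda1 (1.54 ± 0.40), a call lost without tumor 2 or any 1 of the WT skins. Of 11 AP-1 genes Junb and Fosl1 were higher, and 0 without WT skin 1. Fosl1, which encodes FRA1, had 0.921, 8.16, 19, 4.19 and 3.10 RPKM in tumors, 2.25, 0.916 and 0.711 RPKM in Dlx3 KO skin, and 0.162, 0.389 and 0.276 RPKM in WT skin (2.77 ± 0.66, adjusted p = 0.0169). All tumors were above all WT skins, and tumor 1 lay within Dlx3 KO skin. The Fosl1 call was lost without WT skin 1 or 3, and neither list had a call with run as a term.

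Proliferation genes did not pass. By limma 0 of 32 genes of G2 and mitosis and 0 of 29 replication genes were called, beside 3.56% of all genes called higher. In lists of this size, 0 calls are close to that share. Their medians were 0.33 and 0.22, against -0.14 for all genes, and 28 of 32 and 22 of 29 lay above 0. At an unadjusted p under 0.05 there were 4 and 2, all higher. Without WT skin 3 there were 3 and 2 calls, all higher. Tumor against Dlx3 KO skin gave 3 and 2 higher genes, beside 0.998% of all genes. Mki67, a marker of cycling cells, had 8.35 to 12.2 RPKM in tumors. It was also high in WT skins 1 and 3, where hair genes were high, at 10.1 and 15.9 RPKM, while the library labelled WT skin 2 had 4.06 RPKM. The part of hair growth in this comparison was not tested. The cell cycle motif TTTGAA, searched on both strands, was in 17 of 24 promoters of the mitosis list, 11.9% of those of genes called higher, 13.7% of those called lower and 12.7% of all promoters.

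Some regulators of the G1 phase changed. Of 21 such genes 4 rose and 2 fell, with a median of 0.27, beside 3.56% higher and 12% lower of all genes tested. With run as a term 2 were higher and 1 lower. Cdkn1c, an imprinted gene for a cyclin-dependent kinase inhibitor, had 2.48, 1.28, 0.300, 1.54 and 0.672 RPKM in tumors, 9, 10.4 and 11.4 RPKM in Dlx3 KO skin, and 7.19, 27.0 and 11.8 RPKM in WT skin (-3.11 ± 0.45, adjusted p = 0.000903). Cdk6, a kinase that starts the cycle, had 3.57, 7.08, 6.66, 4.45 and 6.96 RPKM in tumors and 1.93, 1.53 and 2.01 RPKM in WT skin (1.39 ± 0.24, adjusted p = 0.00262). Both were called under all 25 alternatives. Myc rose by 1.46 ± 0.27, and Ccng1, a p53 target, fell by 1.41. The Myc and Ccng1 calls were lost with run as a term. Cdkn2a and Ccne1 were the other genes that rose, and the higher count was 2 without tumor 2, 3 or 4 or WT skin 1.

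Arg1, which turns arginine to ornithine, the precursor of polyamines, had 120, 182, 235, 160 and 116 RPKM in tumors, 10.8, 3.33 and 1.37 RPKM in Dlx3 KO skin, and 11.3, 3.61 and 18.2 RPKM in WT skin. It rose by 4.02 ± 0.58 (adjusted p = 0.000830) and was called under all 25 alternatives. Of the other 9 polyamine genes only Sms, spermine synthase on the X chromosome, was called, and it fell (-1.70 ± 0.29). Of 16 genes of stress and amino acid response 3 were higher and 2 lower. Asns and Shmt2, enzymes of asparagine and serine use, rose by 1.24 ± 0.20 and 1.11 ± 0.22, while Chac1 and Vldlr were lower (-3.03 and -1.28). With run as a term 1 gene of this list was higher and 2 were lower, and the Shmt2 call was lost.

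Transcription factors of squamous epithelium were higher in 5 of 19 and lower in 0, and the count of 5 stayed within 1.5 times under every alternative. Pitx1 (chromosome 13, 55825051 to 55836192), a homeobox factor of the hind limb and of oral epithelium, had 78.3, 141, 241, 38 and 145 RPKM in tumors, 3.45, 6.70 and 13.5 RPKM in Dlx3 KO skin, and 1.72, 8.32 and 0.636 RPKM in WT skin (5.27 ± 0.71, adjusted p = 0.000581). Elf3, an epithelial ETS factor, had 6.06, 9.20, 10.3, 11.5 and 6.74 RPKM in tumors, 1.51, 2.42 and 2.36 RPKM in Dlx3 KO skin, and 0.555, 1.31 and 0.426 RPKM in WT skin (2.90 ± 0.28, adjusted p = 5.39e-05). All tumors were above all skins for both. Ehf, a relative of Elf3, overlapped between tumor and Dlx3 KO skin, with 27.6, 19, 14.3, 17.8 and 18.4 RPKM in tumors, 22.4, 22.1 and 18.3 RPKM in Dlx3 KO skin, and 3.05, 9.38 and 2.57 RPKM in WT skin.

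Lists of developmental pathways are set against the 12% of all tested genes that were lower. Of 21 Wnt genes 5 were lower and 0 higher, led by Sfrp4 (-2.35 ± 0.51) and Wnt10b, with 1 lower without WT skin 3, 3 without any 1 of tumors 2 to 5 or WT skin 1, and 9 without tumor 1. After either scaling 3 Wnt genes were also higher. Of 8 hedgehog genes Shh was lower (-2.83 ± 0.85), with 4.80 RPKM in tumor 1, 0.0312 to 0.332 RPKM in the other tumors and 4.84, 5.47 and 13.3 RPKM in WT skin, and 5 were lower without tumor 1. The Shh call was lost without any 1 of tumors 2 to 5, the WT skins or Dlx3 KO skin 2. Wnt10b is counted both here and among the hair matrix regulators, of which 11 of 17 were lower. Hoxc13 is counted both among those regulators and among the Hox genes below. The part of the hair matrix in these changes was not tested. Of 15 Notch genes Hey1 was lower, and of 27 Hox genes 5 were lower, led by Hoxd8 (-2.33 ± 0.41). Hey1 was called in 10 of 25 alternatives, and the Hox count was 3 without tumor 2, tumor 3, Dlx3 KO skin 2 or the library labelled WT skin 2, and 2 without WT skin 3. The medians of the Notch and Hox lists, -0.30 and -0.27, were 0.027 and 0.0063 after quantile normalization.

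In a list of neutrophil chemokines and IL-17-related cytokines, 5 of 14 tested genes were higher and 0 lower, with a median of 1.94. Of all genes tested, 3.56% were higher. The list held 19 genes before the expression filter, which Il24 passed through its tumor values. The same may hold for Il19 and Il23a, with authors' deposited WT skin means of -2.26 and -2.01 on a log2 scale. The share of higher genes in this list therefore depends in part on the filter. Il24, a cytokine of wounded keratinocytes, had 0.565, 13.7, 7.10, 5.34 and 3.84 RPKM in tumors, 0.0437, 0.0186 and 0.101 RPKM in Dlx3 KO skin, and 0.0510, 0.0379 and 0 RPKM in WT skin (3.22 ± 0.62, adjusted p = 0.00555). Cxcl1, a neutrophil chemokine, rose by 3.19 ± 0.78, Il23a by 2.08 ± 0.47 and Il19 by 2.83 ± 0.76. Tumor 1 was the lowest tumor in Il24, Cxcl1, Il23a and Il19. The count was 2 without WT skin 1, 1 without WT skin 3, 3 without the library labelled WT skin 2, tumor 3 or tumor 4, and 0 with run as a term.

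In the IL-1 family Il33, an alarm cytokine held in the nucleus, rose by 2.53 ± 0.45, with 8.93, 37.5, 13.7, 35.2 and 13.2 RPKM in tumors and 2.67, 2.5 and 3.23 RPKM in WT skin. Il1f9 rose, and Il1r1 and Il1f10 fell. The groups overlapped for Il1f9, which was called in 12 of 25 alternatives. Of 11 lymphocyte markers only Cd5 was called (1.21 ± 0.28), a call lost without WT skin 1 or 3, and by limma 0 of 22 interferon-stimulated genes passed, with 3 at an unadjusted p under 0.05. Without tumor 1, 3 interferon-stimulated genes were lower. Their median of -0.17 was 0.10 after quantile normalization.

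Matrix proteases of invading epithelium were higher in 4 of 16 and lower in 1. This list held 18 genes before the expression filter, which Mmp10 passed through its tumor values, so its share of higher genes depends in part on the filter. Mmp13, a collagenase, had 2.15, 31.7, 10.3, 26.2 and 7.72 RPKM in tumors, 0.583, 0.465 and 0.346 RPKM in Dlx3 KO skin, and 0.617, 0.458 and 0.264 RPKM in WT skin (3.62 ± 0.66, adjusted p = 0.00382). Mmp10, a stromelysin of wound-edge keratinocytes, had 0.275, 11.7, 4.01, 5.86 and 2.51 RPKM in tumors, 0.0295, 0.0383 and 0.103 RPKM in Dlx3 KO skin, and 0.0671, 0.0774 and 0 RPKM in WT skin (2.80 ± 0.66, adjusted p = 0.0161), a call lost without WT skin 3. Every tumor exceeded every skin in both genes, and tumor 1 was the lowest tumor. Adam8 rose by 1.90, and Timp3, an inhibitor of these proteases, fell by 2.08. Without WT skin 3 there were 2 higher genes, and with run as a term 0.

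Mmp13 and Mmp10 lie in the same Mmp gene cluster on chromosome 9, with other members between them. The promoters of both hold the AP-1 motif near the start, as did 4 of 10 promoters in this list, among them that of Mmp3, a cluster member that was not called. The windows lie on the plus strand at chr9:7272264-7272513 for Mmp13 and chr9:7502092-7502341 for Mmp10, printed as above with the motif in capitals.
Mmp13: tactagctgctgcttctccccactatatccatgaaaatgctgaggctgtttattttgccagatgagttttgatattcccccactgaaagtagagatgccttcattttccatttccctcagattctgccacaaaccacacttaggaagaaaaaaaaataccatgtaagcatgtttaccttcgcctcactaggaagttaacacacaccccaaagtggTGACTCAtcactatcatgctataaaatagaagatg
Mmp10: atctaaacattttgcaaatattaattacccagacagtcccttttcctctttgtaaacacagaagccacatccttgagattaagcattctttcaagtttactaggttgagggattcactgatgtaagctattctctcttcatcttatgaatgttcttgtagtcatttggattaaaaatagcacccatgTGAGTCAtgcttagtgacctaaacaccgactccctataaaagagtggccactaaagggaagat
The motif began 35 bases before the start in Mmp13 and 63 bases before it in Mmp10. Of 14 genes of epithelial and mesenchymal state Snai2 was higher (1.16 ± 0.32) and Zeb2 lower (-1.13 ± 0.28). The Snai2 call was lost without tumor 2, 3 or 4 or any WT skin, and the Zeb2 call without tumor 2 or WT skin 1 or 3. The median of the list, -0.13, was 0.058 after median-ratio scaling and 0.048 after quantile normalization.

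Genes differed in where Dlx3 KO skin stood. Tumor against Dlx3 KO skin and tumor against WT skin share the tumors, and the difference between them is Dlx3 KO skin against WT skin, for which limma called 0 genes in either direction (1229 at an unadjusted p under 0.05, 8.63%). Tumor against Dlx3 KO skin gave 142 higher (0.998%) and 933 lower genes (6.56%). Krt13, Gsta4, Gsto1, Arg1, Slpi, Pitx1, Mmp13 and Tmprss11g were called higher against both skins. For Gsta4 the log2 fold changes were 6.08 over Dlx3 KO skin and 5.92 over WT skin, and for Arg1 5.19 and 4.02.

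Sprr2d, S100a9 and Ehf passed against WT skin but not against Dlx3 KO skin. Dlx3 KO skin against WT skin, which tests that difference, did not pass for any of them. Sprr2d differed from Dlx3 KO skin by -0.33 (adjusted p = 0.851) and from WT skin by 4.26 (adjusted p = 0.0101). For S100a9 the values were 1.16 (adjusted p = 0.408) and 5.31 (adjusted p = 0.00171). Ehf stood at -0.13 (adjusted p = 0.844) and 2.03 (adjusted p = 0.00262). Duoxa1, the maturation factor of an epithelial hydrogen peroxide source, had 35.9, 40.6, 45.4, 29.9 and 23.2 RPKM in tumors, 17.0, 15.4 and 19.9 RPKM in Dlx3 KO skin, and 4.52, 7.48 and 4.42 RPKM in WT skin. Rbp2, a cellular retinol-binding protein, had 196, 202, 146, 273 and 118 RPKM in tumors, 72.7, 92.2 and 104 RPKM in Dlx3 KO skin, and 24.0, 22.7 and 10.4 RPKM in WT skin. For both, the 3 groups did not overlap, and Dlx3 KO skin against WT skin did not pass (adjusted p = 0.201 each).

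The authors' deposited table of the same comparison gave 373 of the genes tested here a ratio above 1 and 1301 a ratio below 1 at a q-value under 0.05. Of the genes called here, 334 of the 506 higher and 1210 of the 1702 lower had such a q-value and direction in the authors' deposited table.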

How the data were processed

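Libraries of rRNA-depleted whole-tissue RNA were read as 50-base single ends on HiSeq3000 or NovaSeq6000, per the labels' protocols. The submitters' processing notes name bcl2fastq 2.20.0.422, TopHat2 2.1.1, Bowtie, Partek and mm10. Per the file headers, the authors mapped reads to mm10 and calculated RPKM in Partek. The deposited alignment counts per library were used as depth, and the deposited RPKM table held 24974 genes in 11 libraries, 1143 of them at 0 throughout. The authors' deposited comparison table gives group means on a log2 scale, a ratio, a p-value and a q-value per gene.

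From the RPKM, log2(RPKM + 0.5) was fitted with limma 3.58.1 under R 4.3.3, using eBayes with its trend and robust options, for genes with a mean RPKM of at least 0.5. The 3 groups were fitted together with 8 residual degrees of freedom, and p-values were adjusted by Benjamini-Hochberg, with calls under 0.05. The scripts were tested on simulated data. Tables and figures used Python 3.11.15, pandas 2.3.3, numpy 2.4.6 and matplotlib 3.10.9. Promoters came from RefSeq (GRCm38.p6) and gene positions from GENCODE M21.

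Genes and lists were chosen with earlier results of these data known. Named genes were the 15 called genes per direction with the largest change and no overlap between groups (at most 4 of a list), the 8 with the largest moderated t per direction, up to 4 members per list with the smallest p, and Dlx3, Egfr, Erbb2 and Erbb3. Some of the genes so chosen are not reported here. Krt1, Krt10, Lor, Xist, Ddx3y, Rn45s, Fabp4, Pparg, Sprr2d, Sprr4, Sprr1a, Sprr1b, Tgm3, Lce1a1, Lce1e, Lce1m, Krt77, Dsg2, Spint1, Lyz1, Wfdc21, Tgfa, Btc, Mki67, Cdkn2a, Ccne1 and Mmp3 were named after their values were seen. Alternatives changed the pseudocount, filter, scaling, limma settings, run and Xist terms, the libraries fitted and the replicate block.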

Additional observations from a re-analysis of the deposited data

Results flagged for a closer look

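In 50 genes examined, 9 had a tumor set apart from the nearest other tumor. The gap, as a share of the range of the 5 tumors on log2(RPKM + 0.5), exceeded Dixon's 95% critical value of 0.71. Chance gives about 1 in 20 for a single gene, but these genes share libraries and are not independent. Tumor 5 was the highest in 8 of the 9, all muscle genes, so these 8 reflect a single library. The gap was 0.792 of the range for Cacng6, 0.794 for Ckmt2, 0.85 for Fbxo40, 0.749 for Jsrp1, 0.839 for Klhl40, 0.824 for Myf6, 0.721 for Myh4 and 0.72 for Pvalb. In RPKM, Myh4 had 29.1 RPKM in tumor 5 and 0.646 to 2.34 RPKM in the other tumors. In Atcayos the gap was 0.712, with 0.222 RPKM in tumor 3 and 0.0508 to 0.0955 RPKM in the others.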

How the results depend on the processing

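The number of genes higher in tumor was 1103 after median-ratio scaling, 1461 after quantile normalization, 300 with only tumor and WT skin libraries, 125 with sequencing run as a term and 239 within the first run. It ran from 276 to 764 when a library was left out. The number of lower genes was 580 with run as a term, and 883 to 2662 when a library was left out. Deviations from group means in same-number tumor and WT skin libraries correlated at -0.41, -0.083 and 0.18. Pairs with different numbers ran from -0.28 to 0.38. Tumors were not compared in this way with Dlx3 KO skins, so these values cannot settle whether replicate numbers pair libraries. A replicate block gave 352 higher and 634 lower genes. Pseudocounts of 0.1 and 1, no filter, a minimum of 1, limma without trend and robust, library weights and an Xist term gave both counts within 1.5 times.

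Signs turned for few named genes. Cyp4f39 was at -0.014 within the first run. Egfr was at 0.021 after quantile normalization and ran from -0.49 to 0.054 with a library left out (0.054 without WT skin 3). Erbb2 was at 0.15 after median-ratio scaling, 0.097 after quantile normalization, 0.064 with library weights, 0.28 with the replicate block, and ran from -0.45 to 0.21 with a library left out (above 0 without tumor 5, 0.19, WT skin 2, 0.21, or WT skin 3, 0.12). Erbb3 was at -0.46 with run as a term, -0.55 within the first run, -0.26 without WT skin 1 and tumor 5, and ran from -0.41 to 0.26 with a library left out (below 0 without WT skin 1, -0.41, or tumor 1, -0.16). The cause was not tested. Of 187 named genes with a call, 99 lost it with run as a term and 72 within the first run. Run nearly coincides with group, and the lone tumor of the first run is assumed to vary like the other groups.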
